A study of Mus musculus with 12 samples.

Results

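Pooled over macrophages with and without IFNβ, 98 of 15033 tested genes were called higher (0.652%) and 29 lower (0.193%) with supernatant of melanoma cells. Both numbers depended on single libraries, the lower calls more so: leaving out 1 library gave 48 to 110 higher and 5 to 49 lower calls. The comparison set 6 libraries with supernatant (eGFP supernatant and Ifnb1eGFP supernatant) against 6 without it (untreated control and rIFNβ), with the IFNβ state as an additive factor, and so used all 12 libraries of the series, 3 in each of 4 conditions. All cells were bone marrow-derived macrophages (BMDM) of C57BL/6J mice, grown in M-CSF (20 ng/mL), polarized into an M2-like state by IL4 (10 ng/mL, 48 hours) and then treated for 72 hours. Supernatant came from YUMM5.2 cells, a mouse melanoma line carrying a lentiviral cassette that a tetracycline response promoter drives, after 72 hours with doxycycline (Dox, 1 μg/mL). The Ifnb1eGFP line makes IFNβ and eGFP, and the eGFP line makes eGFP alone. Ifnb1eGFP supernatant was brought to 1500 pg/mL IFNβ, eGFP supernatant was diluted at an equal ratio, rIFNβ was recombinant IFNβ at an equivalent concentration, and untreated control received plain medium. Products of the melanoma cells, remaining Dox and puromycin and the donor cells' own medium arrived together in every supernatant and cannot be told apart here. In the IFNβ state the source of IFNβ, melanoma cells or recombinant protein, changed with supernatant too and cannot be told apart from it. What a replicate number stands for is not given in the sources used here, and p-values measure the spread between these cultures of 3 mice per condition.

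Tumor cells shed chemokines, growth factors, lipids and metabolites that reach macrophages without cell contact. Macrophages can answer such signals by changing their migration receptors, Fc receptors, lysosomal proteases and antigen presentation machinery. IL4 drives the alternatively activated state through STAT6, whereas IFNβ acts through STAT factors of its own and induces a large set of antiviral genes. The additive factor accounts for whether IFNβ was present, not for its source or activity.

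Totals ran from 39181022 to 45348457 counts with supernatant and from 31526034 to 44713667 without it. Levels are CPM, counts scaled to a common normalized library total of 1000000. Of 8 macrophage markers, Adgre1, Csf1r, Cd68, Mertk, Fcgr1 and Cd14 were not called and Itgam and Lyz2 rose. The 8 melanoma markers summed to 0.248 to 0.877 CPM with supernatant and 0.556 to 0.832 CPM without, with Tyrp1 and Slc45a2 at 0 in all libraries, and the 6 fibroblast markers to 31.3 to 81.3 and 36.9 to 85.9 CPM, with none called. In bulk RNA, fewer cells of a type and less RNA per cell cannot be told apart. Some libraries stood apart. The replicate 2 library of eGFP supernatant had 2842 CPM summed over 39 interferon-stimulated genes, against 829 to 1149 CPM in the other libraries without IFNβ and 24120 to 27130 CPM with it. Replicates 1 and 2 of Ifnb1eGFP supernatant had the widest spread around their condition mean, with an SD over genes of 0.175 and 0.182 on the log2 scale against 0.07 to 0.145 in the other 10 libraries, and their deviations tracked gene GC content in opposite directions (Spearman's rho -0.557 and 0.546, across genes, which are not independent).

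**Figure D1:**
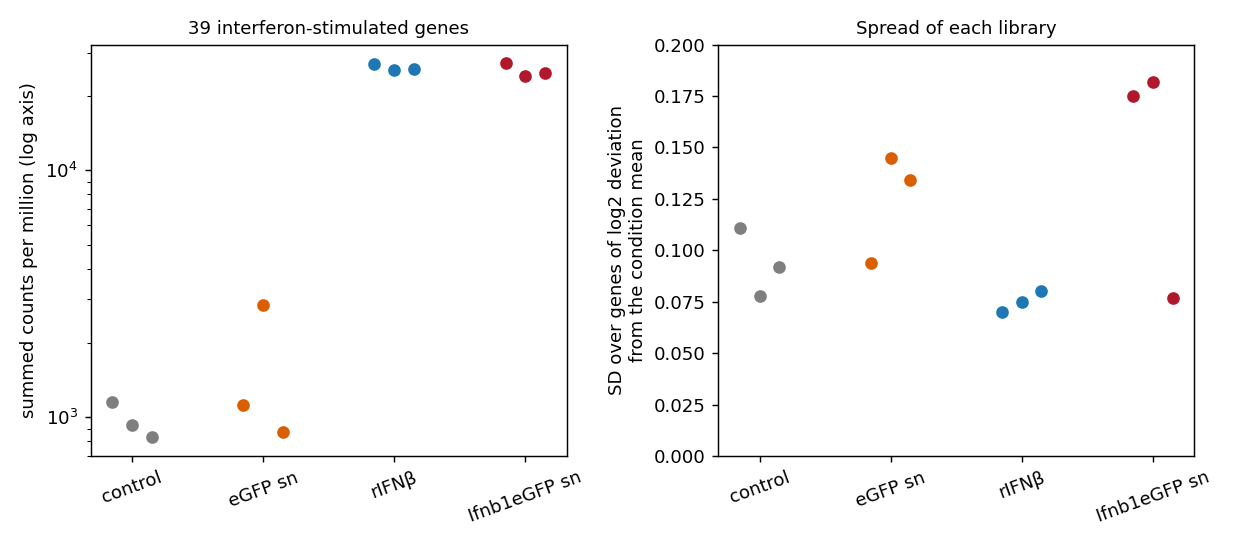
Left, CPM summed over 39 interferon-stimulated genes in each library (log axis); right, the SD over genes of each library's log2 deviation from its condition mean. Points are libraries, 3 per condition. Replicate 2 of eGFP supernatant lies at 2842 CPM, above the other libraries without IFNβ, and replicates 1 and 2 of Ifnb1eGFP supernatant lie highest on the right, at 0.175 and 0.182.

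Among the genes that rose with supernatant were the chemokine receptors Cxcr4 and Ccr1, the Fc receptor Fcgr2b, the MS4A genes Ms4a4a and Ms4a6d, the lysosomal proteases Ctsl and Lgmn and the apolipoprotein Apoc2, whereas a serine/threonine kinase, the MHC class II invariant chain and a sialyltransferase fell. Of 15033 genes tested, 127 were called (0.845%) by edgeR's quasi-likelihood test at a Benjamini-Hochberg adjusted p of at most 0.05, 98 of them higher (0.652%) and 29 lower (0.193%). Before adjustment, 1675 genes had a p below 0.05. The changes were small: the called higher genes had a median log2 fold change of 0.30 (0.13 to 1.81) and the called lower genes of -0.29 (-1.25 to -0.14), and 103 of the 127 were under 0.5 in size. The stricter thresholds of the study's methods (a log2 fold change of 2 or more in size, adjusted p up to 0.01) were passed by 0 genes with edgeR and with DESeq2. Just inside the call lay Gm13431 and Tnip3 (edgeR adjusted p = 0.049 and 0.0494), and just outside it Nxpe5, Pilrb1 and Spp1 (0.0507, 0.0539 and 0.054). Among the 127 genes, 119 are protein coding.

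The chemokine receptor Cxcr4, which guides cells toward CXCL12, had the smallest p of all genes. Its level was 18.9, 17.1 and 19.7 CPM in untreated control and 33.3, 31.5 and 35.3 CPM with eGFP supernatant. It was 31.6, 33.5 and 32.9 CPM with rIFNβ against 57.4, 57.8 and 60.3 CPM with Ifnb1eGFP supernatant. The groups did not overlap in either IFNβ state. The rule required this of genes named for the smallest p, also Ms4a4a, Ctsl, Thbs1, Dmpk and Cd74, so it adds no support. Libraries with eGFP supernatant reached the level of those with rIFNβ alone. The pooled log2 fold change was 0.84 ± 0.04 (SE; 1.79-fold; edgeR adjusted p = 9.56e-07), with 0.84 both without and with IFNβ. Ccr1, a receptor for several CC chemokines, was 264 to 291 CPM in untreated control and 329 to 333 CPM with eGFP supernatant, and 292 to 298 CPM with rIFNβ against 376 to 411 CPM with Ifnb1eGFP supernatant. It rose by 0.33 ± 0.04 (edgeR adjusted p = 0.00207). These were 2 of 16 tested receptors for chemokines and other attractants (12.5% called, against 0.845% of all genes). The list median was 0.14 against -0.002 for all genes, and 15 of the 16 lay above 0, against 7397 of all 15033 genes. Ccr2, C3ar1 and C5ar1 had values of 0.14, 0.13 and 0.05 and were not called.

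**Figure D2:**
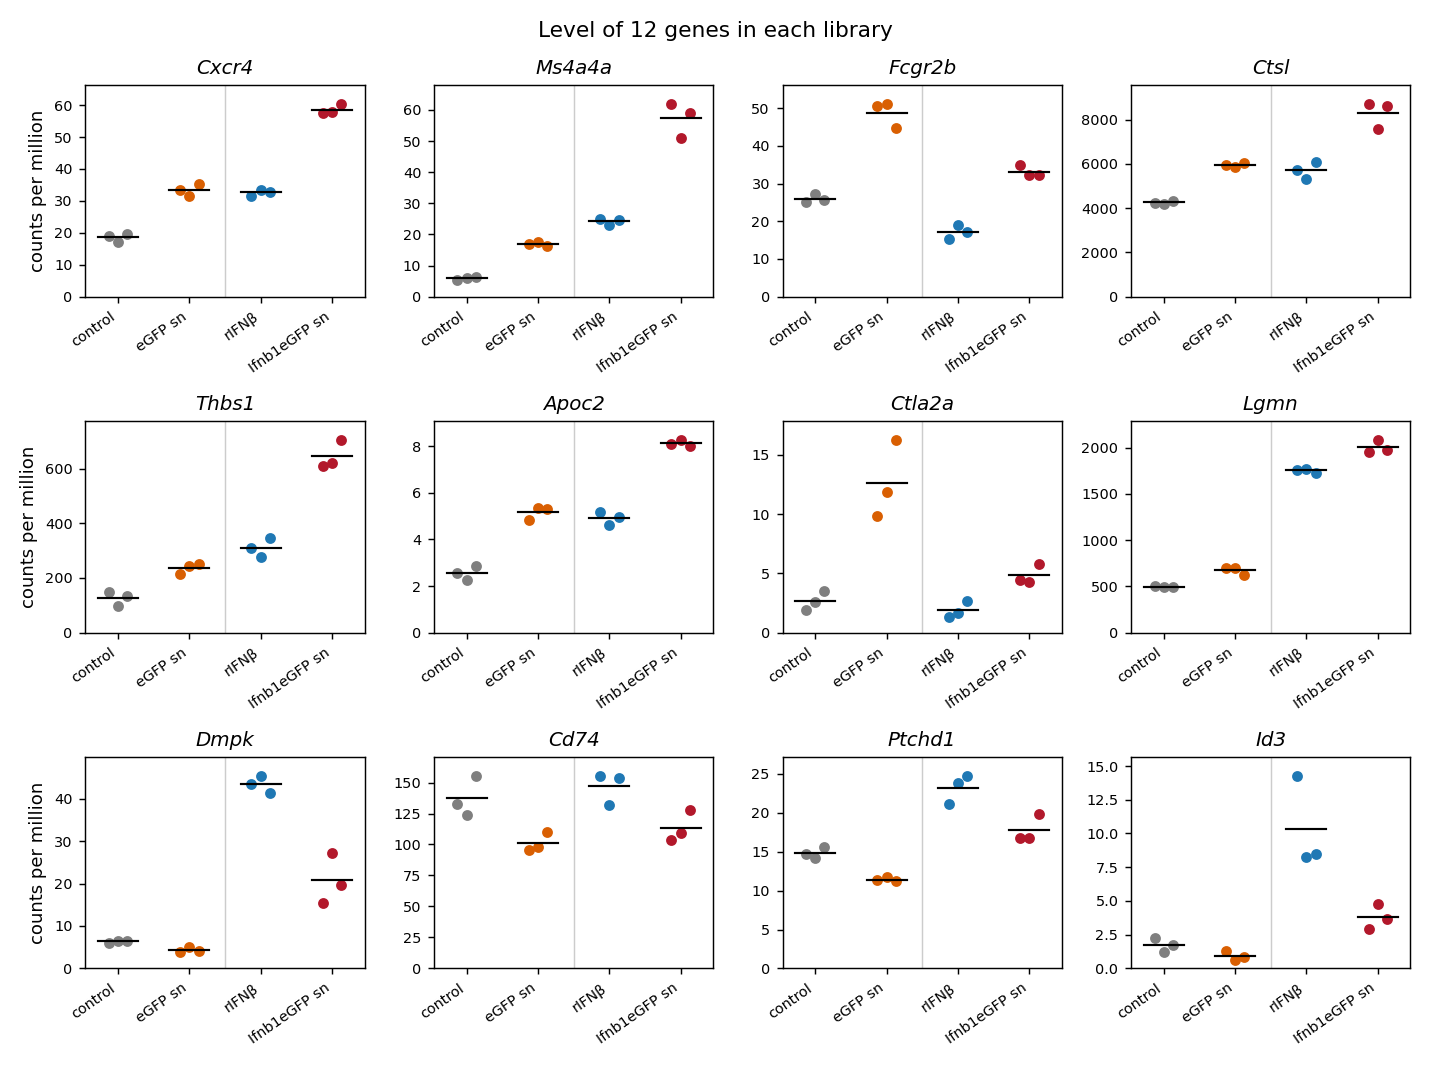
CPM (linear axes from 0) of 12 genes in each of the 12 libraries; points are libraries, black bars condition means (n = 3), and the grey line separates conditions without IFNβ (left) from those with it (right). Cxcr4 averages 18.6 CPM in control against 33.4 CPM in eGFP supernatant, and 32.7 CPM in rIFNβ against 58.5 CPM in Ifnb1eGFP supernatant, while Dmpk, Cd74, Ptchd1 and Id3 lie lower with supernatant in both states.

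Ms4a4a, a 4-transmembrane protein of the MS4A family, had the largest rise among the genes named for the smallest p in each direction. Without IFNβ it was 5.28, 5.94 and 6.36 CPM in control and 16.9, 17.6 and 16.2 CPM with supernatant, and with IFNβ 24.9, 23.2 and 24.5 CPM without and 61.9, 51.1 and 58.9 CPM with supernatant. All supernatant libraries lay above all others of their state, for a log2 fold change of 1.37 ± 0.07 (edgeR adjusted p = 9.56e-07). The predicted gene Gm56663 begins 49 bases past the annotated end of Ms4a4a on the same strand of chromosome 19 and rose by 1.36. Whether its reads belong to the Ms4a4a transcript was not tested. Ms4a6d, 193814 bases away, rose from 122 to 126 CPM to 152 to 162 CPM without IFNβ and from 408 to 422 CPM to 471 to 565 CPM with it (0.33 ± 0.04; edgeR adjusted p = 0.00239). All 10 tested members of the family lay above 0, against 7397 of all 15033 genes, and 2 were called (20%, against 0.845% of all genes). The family median was 0.32, with 0.81 without IFNβ and 0.18 with it. Ms4a7 (0.21) missed the call with an edgeR adjusted p of 0.0551, and Ms4a6b and Ms4a6c had values of 0.61 and 0.44 that were not called (0.16 and 0.115). Members of this family resemble one another in sequence, so the division of reads between them is uncertain.

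Fcgr2b encodes the inhibitory Fcγ receptor for immune complexes. It was 25.02, 27.2 and 25.6 CPM in control and 50.6, 51.0 and 44.6 CPM with eGFP supernatant. With rIFNβ it was 15.4, 19.1 and 17.1 CPM and with Ifnb1eGFP supernatant 34.97, 32.2 and 32.3 CPM. Levels with supernatant were 1.9-fold higher in a comparison that IFNβ itself moved the other way: the pooled supernatant effect was 0.93 ± 0.06 (edgeR adjusted p = 4.23e-06), and the IFNβ effect -0.57. It was the 1 called member of 6 tested Fc receptors (16.7%, against 0.845% of all genes), whose median was 0.15.

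Promoter windows are shown for the 4 genes, among 9 of the genes considered here, in which the 250 bases before the canonical transcript start held no annotated UTR. Capitals mark matches on either strand to 6 motifs: AP-1 (TGANTCA), CRE (TGACGTCA), E-box (CACGTG), ISRE core (GAAA and GAAA with a gap of 2 bases), a STAT6-type repeat (TTC and GAA with a gap of 4 bases) and PU.1 (GAGGAAGT). The sequences are from GRCm39, written 5′ to 3′ on the strand of the gene.
Cxcr4, chr1:128520045-128520294, minus strand: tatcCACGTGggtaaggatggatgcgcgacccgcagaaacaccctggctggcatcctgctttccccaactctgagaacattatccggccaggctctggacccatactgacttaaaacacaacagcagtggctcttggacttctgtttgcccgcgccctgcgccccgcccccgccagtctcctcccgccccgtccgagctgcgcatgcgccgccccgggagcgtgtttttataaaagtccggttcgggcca
Bcl2a1b, chr9:89081012-89081261, plus strand: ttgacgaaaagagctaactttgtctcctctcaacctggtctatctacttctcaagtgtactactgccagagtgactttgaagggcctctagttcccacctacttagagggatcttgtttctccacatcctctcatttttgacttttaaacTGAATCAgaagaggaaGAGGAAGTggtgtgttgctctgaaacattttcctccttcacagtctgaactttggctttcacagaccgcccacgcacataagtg
Thbs1, chr2:117941724-117941973, plus strand: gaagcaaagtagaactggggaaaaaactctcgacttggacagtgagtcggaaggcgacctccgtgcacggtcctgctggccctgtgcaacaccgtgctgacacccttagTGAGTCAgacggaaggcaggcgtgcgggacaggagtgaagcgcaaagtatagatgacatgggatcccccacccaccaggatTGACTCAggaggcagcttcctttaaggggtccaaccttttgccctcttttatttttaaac
Cd93, chr2:148285547-148285796, minus strand: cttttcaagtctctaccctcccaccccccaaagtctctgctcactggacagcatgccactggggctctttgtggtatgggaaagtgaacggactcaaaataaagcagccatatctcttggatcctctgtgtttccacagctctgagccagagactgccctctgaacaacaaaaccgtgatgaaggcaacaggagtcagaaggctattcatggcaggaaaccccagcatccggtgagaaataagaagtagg
The E-box of Cxcr4 lies 246 to 241 bases before the start. Thbs1 holds 2 AP-1 matches, 141 to 135 and 60 to 54 bases before the start, and Bcl2a1b an AP-1 match (100 to 94) and a PU.1 match (84 to 77). No motif was found in the Cd93 window. AP-1 letters were in 10 of 98 windows of called higher genes (10.2%), in 0 of 29 windows of called lower genes and in 741 of 14961 windows of all genes (4.95%). The E-box was in 5.1% of called higher windows against 7.27% of all, the CRE in 1.02% against 1.87%, the ISRE core in 3.06% against 3.25%, the STAT6-type repeat in 4.08% against 5.27% and PU.1 in 4.08% against 2.37%. A match to these letters is a description of the window and shows no binding, and the motifs were chosen with the calls known.

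Cathepsins and legumain, lysosomal proteases which digest engulfed protein and trim antigens, held the largest share of calls among lists with more than 10 tested genes. Of 13 tested, 4 rose and 0 fell (30.8% called, against 0.845% of all genes). Leaving out 1 library gave 2 to 4 calls in this list, and DESeq2 gave 5. Cathepsin L (Ctsl), the most abundant of the 4, was 4228, 4204 and 4343 CPM in control and 5942, 5846 and 6036 CPM with eGFP supernatant. With IFNβ it was 5704, 5336 and 6095 CPM without supernatant and 8698, 7574 and 8630 CPM with it. The groups did not overlap in either state, and the log2 fold change was 0.51 ± 0.04 (edgeR adjusted p = 0.000122). Legumain (Lgmn), an asparaginyl endopeptidase, was 492 to 508 CPM in control and 627 to 700 CPM with eGFP supernatant. Its levels with IFNβ were 1727 to 1772 CPM without and 1952 to 2082 CPM with supernatant, for 0.31 ± 0.05 (edgeR adjusted p = 0.0105). Cathepsin H (Ctsh) rose by 0.21 ± 0.04 and cathepsin C (Ctsc, named outside the rule after its values were seen) by 0.27 ± 0.05 (edgeR adjusted p = 0.0334 and 0.0429). Cathepsins B, D, S and Z had values of 0.10, 0.03, 0.06 and -0.03 and were not called, and the list median was 0.10. Of 43 lysosomal hydrolases and membrane proteins edgeR called 0 (6 at an unadjusted p below 0.05) and DESeq2 3, and of 18 V-ATPase subunits both called 0 (2 at an unadjusted p below 0.05), with medians of 0.01 and -0.006. For comparison, 1675 of all 15033 genes had an unadjusted p below 0.05. Gm47123, a lncRNA called higher at 0.54, overlaps Ctsl on the opposite strand, and how strand was treated in counting is not given in the sources used here. The same doubt holds for Cxcl16 (Med11), Mmp19 (Tmem198b), St3gal6 (Dcbld2), Ephx1 (Tmem63a), Adgre5 (Ddx39a), Pde7a (Mtfr1) and Ptger4 (Ttc33), each beside the antisense gene in brackets.

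Of 14 tested LXR (liver X receptor) target genes and 21 lipid-associated macrophage genes, 3 and 2 rose, Apoc2 in both lists. These were 21.4% and 9.52% of the lists, against 0.845% of all genes called. Apoc2, the apolipoprotein that activates lipoprotein lipase, was 2.54, 2.25 and 2.86 CPM in control and 4.83, 5.36 and 5.3 CPM with eGFP supernatant, and 5.19, 4.61 and 4.95 CPM with rIFNβ against 8.12, 8.27 and 7.99 CPM with Ifnb1eGFP supernatant. Its log2 fold change was 0.86 ± 0.08 (edgeR adjusted p = 0.000221). Scd2, a stearoyl-CoA desaturase, was 350 to 370 CPM in control and 446 to 471 CPM with eGFP supernatant. It was far lower with IFNβ, 30.1 to 31.6 CPM without and 35.1 to 36.5 CPM with supernatant, and the groups still did not overlap (0.28 ± 0.03; edgeR adjusted p = 0.00177). Arl4c, a small GTPase induced by LXR, rose by 0.47 ± 0.07 (edgeR adjusted p = 0.0105). The LXR list had a median of 0.29 and 11 members above 0, while Abca1 (0.30), Apoe (0.30) and Abcg1 (-0.03) were not called. Fabp5, a fatty acid carrier, rose by 0.23 ± 0.05 (edgeR adjusted p = 0.0445), and in the lipid-associated list 11 members lay above 0 and 10 below. Of 23 sterol synthesis genes 21 lay above 0 with a median of 0.12, against 7397 of all 15033 genes above 0. Of the 23, 0 were called by edgeR (13 at an unadjusted p below 0.05, against 1675 of all 15033 genes) and 4 by DESeq2.

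Genes of the extracellular matrix and adhesion were next. Thbs1 encodes thrombospondin 1, a matrix glycoprotein that binds CD36 and activates latent TGF-β. It was 148, 98.8 and 133 CPM in control and 214, 242 and 250 CPM with eGFP supernatant, and 310, 277 and 347 CPM with rIFNβ against 610, 619 and 705 CPM with Ifnb1eGFP supernatant. Each supernatant library lay above all libraries without it in the same state (0.97 ± 0.10; edgeR adjusted p = 0.000419). Mmp8 and Mmp27, neighboring metalloproteinase genes 2910 bases apart on chromosome 9, rose by 0.75 ± 0.12 and 0.43 ± 0.07 (edgeR adjusted p = 0.0105 and 0.0146). Mmp8 was 8.66 to 9.7 CPM in control and 12.8 to 16.1 CPM with eGFP supernatant. Mmp19 rose by 0.29 ± 0.06, so that 3 of 22 matrix proteases and inhibitors were called (13.6%, against 0.845% of all genes), with a list median of 0.04. Of 16 integrins, Itgam (CD11b, the α chain of complement receptor 3), Itga6 (a laminin receptor chain) and Itga9 rose, by 0.25 ± 0.04, 0.21 ± 0.03 and 0.47 ± 0.09 (edgeR adjusted p = 0.0116, 0.00993 and 0.0261). The integrin list had 18.8% called and a median of 0.05, and 7 of the 16 lay below 0.

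Ctla2a, a small inhibitor of cysteine proteases such as cathepsin L, had the largest log2 fold change of any called gene. It was 1.94, 2.61 and 3.55 CPM in control and 9.8, 11.8 and 16.3 CPM with eGFP supernatant. With IFNβ it was 1.34, 1.66 and 2.63 CPM without supernatant and 4.48, 4.25 and 5.78 CPM with it. The pooled value was 1.81 ± 0.23 (3.52-fold; edgeR adjusted p = 0.00239). Ctla2a overlaps other annotated genes of its cluster and has close copies, so its counts are uncertain.

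Further called genes encode secreted, surface and membrane proteins. Selenop, the selenium carrier, was 1103 to 1326 CPM in control and 1585 to 1751 CPM with eGFP supernatant, and 1163 to 1312 CPM with rIFNβ against 1588 to 1627 CPM with Ifnb1eGFP supernatant (0.45 ± 0.05; edgeR adjusted p = 0.00177). Transferrin (Trf) rose by 0.24 ± 0.04 and Cd93, a C-type lectin-like receptor, by 0.34 ± 0.03 (edgeR adjusted p = 0.0105 and 0.000502). Cd93 was 255 to 285 CPM in control and 326 to 356 CPM with eGFP supernatant, and 283 to 296 CPM with rIFNβ against 358 to 370 CPM with Ifnb1eGFP supernatant. Rnase4, a secreted ribonuclease whose gene overlaps Ang, rose by 0.71 ± 0.07, Ggta1, an α1,3-galactosyltransferase, by 0.34 ± 0.03, and Rnf150, a membrane RING finger protein, by 0.29 ± 0.03 (edgeR adjusted p = 0.000595, 0.000333 and 0.000787). Hgf, the MET ligand, rose by 0.30 ± 0.06 and was the 1 called member of 20 tested growth factors (5%, against 0.845% of all genes). Cxcl16, a membrane-bound chemokine that binds oxidized lipoprotein, rose by 0.38 ± 0.07 and was the 1 called member of 21 chemokines (4.76%). Clec4d, a C-type lectin that senses fungal ligands, rose by 0.24 ± 0.05 (edgeR adjusted p = 0.0368), 1 of 17 such receptors (5.88%).

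Both arms of the BCL2 family were represented among the risen genes. Bcl2a1b, a pro-survival member, was 94.9, 96.6 and 101 CPM in control and 128, 126 and 137 CPM with eGFP supernatant, and 48.9, 46.0 and 45.8 CPM with rIFNβ against 77.1, 71.7 and 68.2 CPM with Ifnb1eGFP supernatant. It rose by 0.52 ± 0.05 (edgeR adjusted p = 0.000261), in both states, although IFNβ lowered it. Bcl2a1b has near-identical copies, so reads may have been divided between them, and its gene overlaps Gm29094 on the same strand. The 4 tested genes of this group, Bcl2a1b included, had values of 0.13 to 0.52, the highest being that of Bcl2a1b. Bcl2l11 (BIM), a pro-apoptotic member, rose by 0.20 ± 0.03 (edgeR adjusted p = 0.0136). The other 15 of 17 tested members were not called (11.8% called, against 0.845% of all genes) and the list median was -0.02.

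Few genes of the stress and second messenger lists were called. Calls made up 5.56%, 8.7% and 4.55% of the hypoxia, immediate early and unfolded protein lists, against 0.845% of all genes. Mxi1, a MYC antagonist, and Hilpda, a lipid droplet protein induced by hypoxia, rose by 0.27 ± 0.03 and 0.29 ± 0.06 (edgeR adjusted p = 0.00177 and 0.0361), 2 of 36 glycolysis and hypoxia genes whose median was 0.02. Crem, a repressor induced by cAMP, rose by 0.32 ± 0.06 (edgeR adjusted p = 0.0193) and with Thbs1 made 2 of 23 immediate early and cAMP response genes. The 3 phosphodiesterase genes, Pde3b, Pde7a and Pde8a, whose products degrade cAMP, rose by 0.54, 0.19 and 0.13, and Ptger4, a prostaglandin E2 receptor that raises cAMP, fell by 0.32. These 4 were named after their values were seen. Over all 16 tested phosphodiesterases the median was -0.002 (-0.62 to 0.64). Edem1, which hands misfolded glycoproteins to degradation, rose by 0.17 ± 0.03 and was the 1 called member of 22 unfolded protein and heat shock genes.

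**Figure D3:**
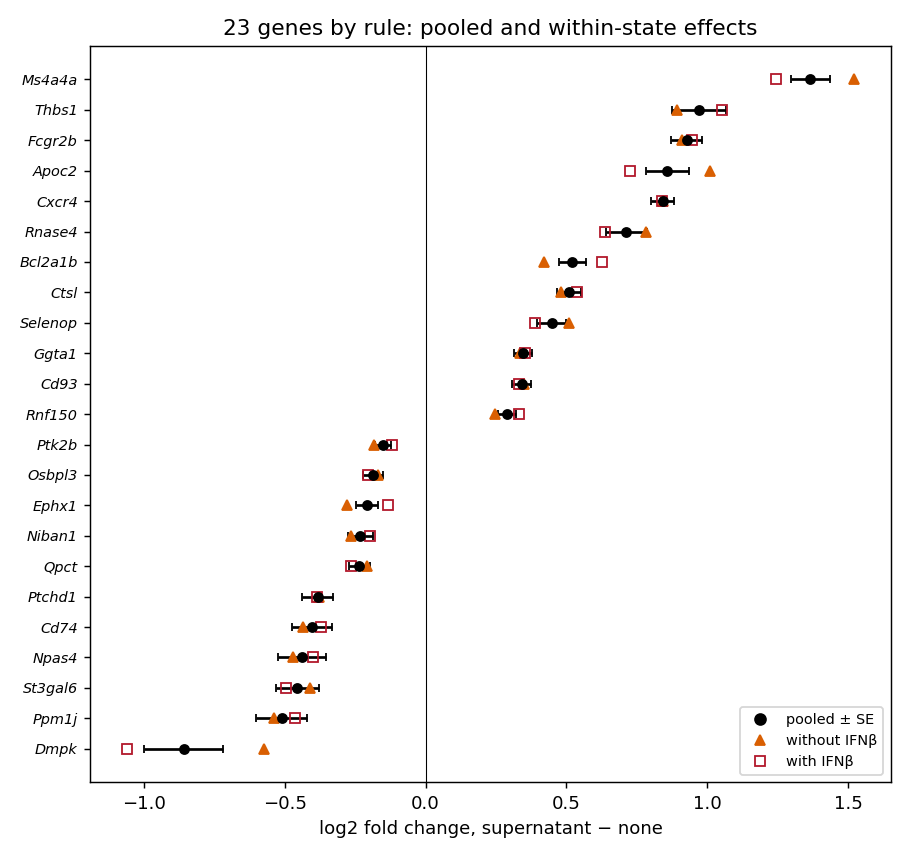
Log2 fold change, supernatant minus none, for 12 called higher and 11 called lower genes of smallest p whose groups did not overlap in either state. Black points are pooled values with SE over 12 libraries; triangles are eGFP supernatant minus control and open squares Ifnb1eGFP supernatant minus rIFNβ. Since separation in both states was required, both within-state values lie on the side of the pooled value for all 23 genes, from Dmpk (-0.86) to Ms4a4a (1.37).

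Genes that fell were fewer and often low. Dmpk, a serine/threonine kinase, fell by 0.86 ± 0.14 (edgeR adjusted p = 0.0136). It was 6.1, 6.41 and 6.53 CPM in control and 3.76, 5.04 and 3.99 CPM with eGFP supernatant, and 43.4, 45.4 and 41.2 CPM with rIFNβ against 15.3, 27.3 and 19.7 CPM with Ifnb1eGFP supernatant. The supernatant libraries lay below the others in both states. Id3, an inhibitor of helix-loop-helix factors and a target of TGF-β and BMP signals, had the largest fall of a called gene, -1.24 ± 0.23 (edgeR adjusted p = 0.0295). Its level was 1.23 to 2.26 CPM in control and 0.609 to 1.31 CPM with eGFP supernatant, which overlapped, and 8.23 to 14.3 CPM with rIFNβ against 2.91 to 4.77 CPM with Ifnb1eGFP supernatant, which did not.

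Cd74, the invariant chain that guides MHC class II molecules, was 133, 124 and 155 CPM in control and 95.9, 98.3 and 110 CPM with eGFP supernatant. It was 155, 132 and 154 CPM with rIFNβ against 103, 109 and 128 CPM with Ifnb1eGFP supernatant. The groups did not overlap in either state, and the pooled value was -0.40 ± 0.07 (edgeR adjusted p = 0.024). It was the 1 called member of 12 class II presentation genes (8.33%, against 0.845% of all genes), of which 4 lay above 0 and 8 below. The list median was -0.09, with 0.007 without IFNβ and -0.20 with it. H2-Ab1, H2-Aa, H2-Eb1 and the transactivator Ciita had values of -0.30, -0.29, -0.29 and -0.41 and were not called (edgeR adjusted p = 0.0888, 0.144, 0.199 and 0.385). Irf4, a factor that IL4 induces, fell by 0.53 ± 0.11 (edgeR adjusted p = 0.0403). It was the 1 called member of 23 IL4-driven genes (4.35%), whose median was -0.02. Mrc1 and Retnla, markers of alternative activation, had values of 0.19 and 0.05 and were not called.

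St3gal6, a sialyltransferase, fell by 0.45 ± 0.08 (edgeR adjusted p = 0.0193). Ptchd1, a patched-domain membrane protein, fell by 0.38 ± 0.06 and Qpct, the enzyme that forms N-terminal pyroglutamate on chemokines, by 0.24 ± 0.04 (edgeR adjusted p = 0.00806 and 0.0135). Ptchd1 was 14.2 to 15.7 CPM in control and 11.3 to 11.7 CPM with eGFP supernatant, and 21.1 to 24.8 CPM with rIFNβ against 16.7 to 19.9 CPM with Ifnb1eGFP supernatant. The phosphatase gene Ppm1j, the epoxide hydrolase gene Ephx1, Niban1, the focal adhesion kinase relative Ptk2b, the activity-regulated factor Npas4 and the oxysterol-binding protein gene Osbpl3 fell by 0.15 (Ptk2b) to 0.51 (Ppm1j). Pcna, the sliding clamp of DNA replication, fell by 0.15 ± 0.03 (edgeR adjusted p = 0.0401). It was the 1 called member of 32 replication genes (3.12%, against 0.845% of all genes). Of the 32, 25 lay below 0, against 7636 of all 15033 genes. Their median was -0.07, with 0.002 without IFNβ and -0.12 with it. Of 34 genes of G2 and mitosis edgeR called 0 (1 at an unadjusted p below 0.05, against 1675 of all 15033 genes) and DESeq2 1. Their pooled median of 0.06 covered opposite directions, 0.22 without IFNβ and -0.10 with it.

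**Figure D4:**
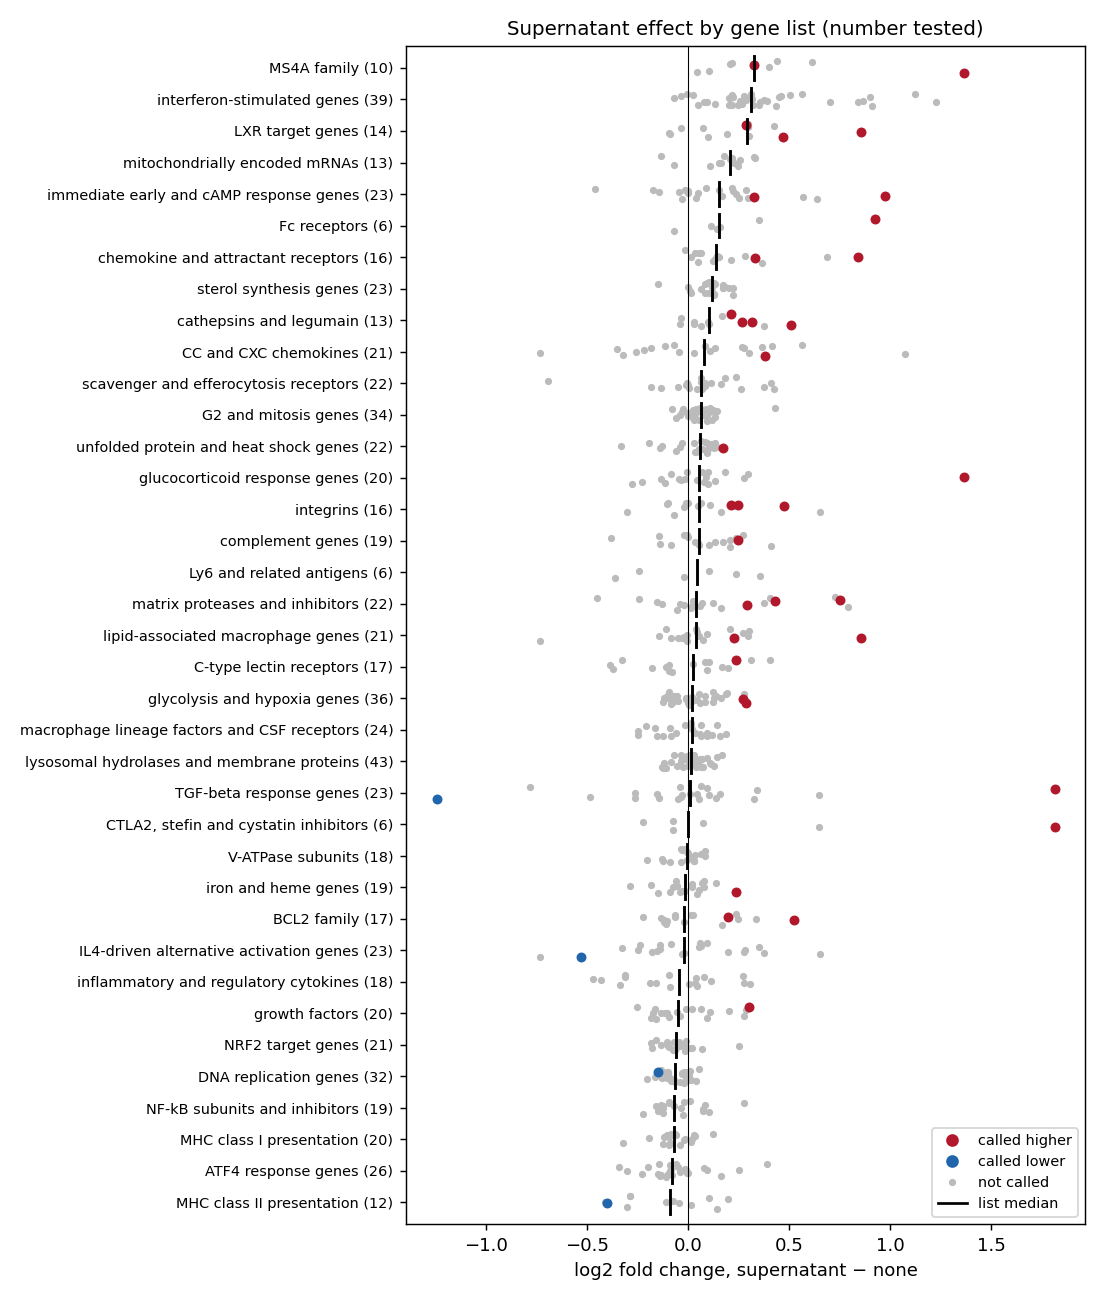
Pooled log2 fold change of each tested member of 37 gene lists (one row per list, number tested in brackets); red and blue points are genes called higher and lower, grey points genes not called, and black ticks list medians. The MS4A family and LXR target genes have medians of 0.32 and 0.29 with called members, whereas the interferon-stimulated list has a median of 0.31 with none called.

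Interferon-stimulated genes were not called, and their pooled median rested on 1 library. The 39 tested had a median of 0.31 and 0 were called, with edgeR and with DESeq2 (0 at an unadjusted p below 0.05, against 1675 of all 15033 genes). Without IFNβ their median was 0.73 and with IFNβ -0.06. Rsad2, an antiviral radical SAM enzyme named after its values were seen, was 46.4, 228 and 20.3 CPM with eGFP supernatant against 32, 28.1 and 20.7 CPM in control, so that 1 library carried the difference. Without the eGFP supernatant replicate 2 library the list median was -0.02. Other lists held no gene called by edgeR: 20 MHC class I, 26 ATF4 response, 21 NRF2 target, 19 NF-κB, 18 cytokine, 22 scavenger receptor, 24 lineage factor and 6 Ly6 genes, with medians between -0.08 and 0.06. DESeq2 called 1 gene each among the NF-κB, scavenger receptor and lineage factor lists. The 13 mitochondrially encoded mRNAs had a median of 0.21, with 0 called by edgeR and 1 by DESeq2. Lists with a single called member not yet given were complement genes (Itgam, of 19, 5.26%) and iron and heme genes (Trf, of 19, 5.26%). The others were glucocorticoid response genes (Ms4a4a, of 20, 5%) and CTLA2, stefin and cystatin inhibitors (Ctla2a, of 6, 16.7%). Of 23 TGF-β response genes, Ctla2a rose and Id3 fell (8.7%), and Apoc2 and Fabp5 were the 2 called of 21 lipid-associated macrophage genes (9.52%). Over all genes the share called was 0.845%.

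Each IFNβ state has its own libraries with and without supernatant, so the states can be set beside each other. All 127 called genes had the pooled direction in both states. The pooled call used these same libraries, so this direction and the separations given next follow largely from the selection. They are no independent support. In 119 of them the 3 libraries with supernatant did not overlap the 3 without it in either state, against 404 of all genes (2.69%). Taken by direction, these were 95 of the 98 higher genes (background 1.9%) and 24 of the 29 lower genes (background 0.785%). Over all 6 against 6 libraries, 17 higher genes and 1 lower gene did not overlap. This separation was not counted over all genes, so it has no background and shows nothing particular to the called genes. The tests that used 1 state alone called fewer genes. Without IFNβ edgeR called 45 (0.299%), 37 higher (0.246%) and 8 lower (0.0532%), and with IFNβ 24 (0.16%), 21 higher (0.14%) and 3 lower (0.02%). The total of 24 with IFNβ depended on single libraries. Without Ifnb1eGFP supernatant replicate 2 it was 1051 (194 higher and 857 lower), and without rIFNβ replicate 1 it was 4. Of the 127 genes, 29 were called without IFNβ, 21 with it, 11 in both and 88 in neither. Of the 45 genes called without IFNβ, 42 had the same direction with IFNβ (93.3%, against 57% of all genes) and 30 did not overlap in that direction (66.7%, against 8.62%). Of the 24 called with IFNβ, 22 had the same direction without it (91.7%) and 21 did not overlap (87.5%, against 10.8%). Across the 45 and the 24 genes the fold changes of the 2 states correlated with Pearson's r of 0.791 and 0.827, and across all genes with r of 0.05, as descriptions across genes that share libraries. Most called genes also answered to IFNβ: 117 of 127 passed the same threshold for the IFNβ effect in the edgeR fit, against 66.4% of all genes.

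**Figure D5:**
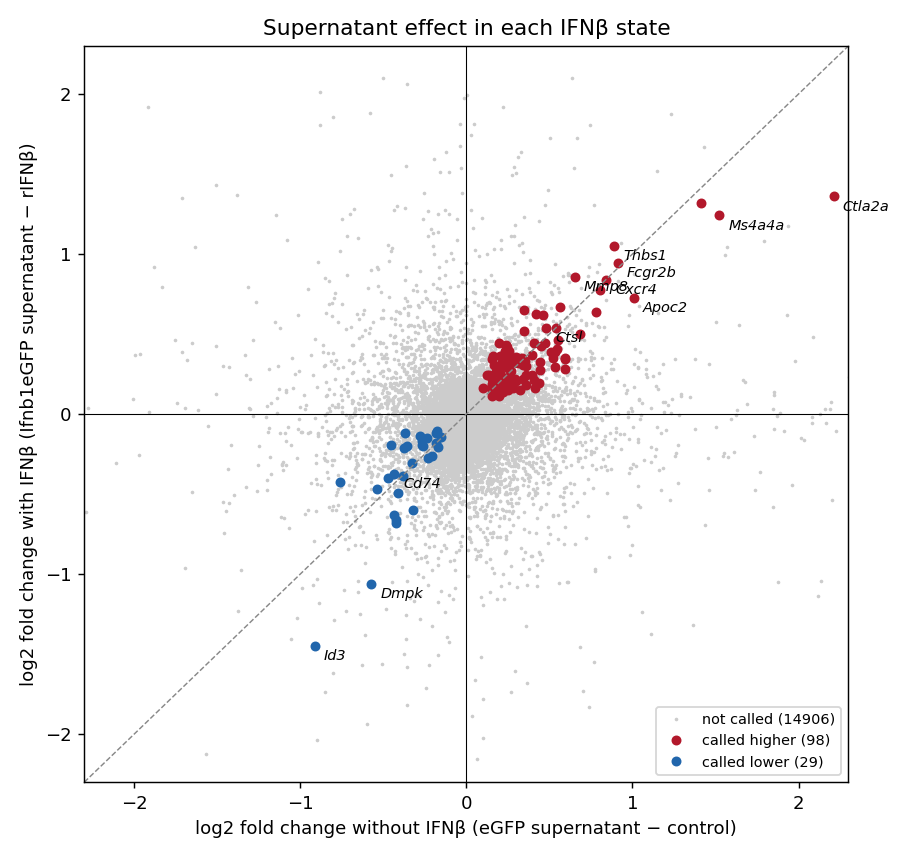
Log2 fold change with supernatant in the state without IFNβ (x axis) and with IFNβ (y axis) for 15033 genes, of which 77 lie outside the axes; the dashed line marks equal values. The 98 genes called higher in the pooled test lie in the upper right and the 29 called lower in the lower left, while genes not called spread over all 4 quadrants. The pooled test used the libraries of both states.

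No gene was called by the interaction test of edgeR between the states (0 called, 661 at an unadjusted p below 0.05, smallest adjusted p = 0.297), and DESeq2 called 12. The gene with the smallest p was Adgre5 (CD97, an adhesion receptor that binds CD55). It was 57.8 to 60.7 CPM in control and 69.4 to 75.9 CPM with eGFP supernatant, whereas it was 139 to 143 CPM with rIFNβ against 123 to 131 CPM with Ifnb1eGFP supernatant. The groups were separate in both states, in opposite directions (0.29 and -0.15; interaction -0.44, edgeR adjusted p = 0.297). Plxnb3, a semaphorin receptor, and Il6ra, the IL6 receptor chain, followed with interactions of -0.85 and -0.32 (edgeR adjusted p = 0.67 for both). Il6ra was 23.4 to 25.1 CPM in control and 30.6 to 31.7 CPM with eGFP supernatant, and 46.7 to 48.7 CPM with rIFNβ against 47.5 to 50.1 CPM with Ifnb1eGFP supernatant.

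Single libraries weighed on the number of calls. Leaving out any 1 library other than replicates 1 and 2 of Ifnb1eGFP supernatant lowered the 127 calls to between 54 (without rIFNβ replicate 1) and 72 (without rIFNβ replicate 3). Without replicate 1 or 2 of Ifnb1eGFP supernatant there were 147 and 159, and without both replicate 2 libraries of the supernatants 148. The lower genes were the more dependent: the 29 became 5 to 12 in the 10 fits with fewer calls, and 38 and 49 without replicate 1 or 2 of Ifnb1eGFP supernatant, against 48 to 63 and 109 and 110 higher genes. No named gene changed direction in any of these fits. Cxcr4, Ms4a4a, Fcgr2b, Ctsl, Apoc2, Bcl2a1b, Ggta1, Thbs1, Cd93, Rnase4, Rnf150, Selenop, Ptchd1, Qpct, Lgmn, Scd2, Arl4c, Mxi1, Trf, Ccr1, Ms4a6d, Itgam, Itga6, Mmp8, Mmp27 and Ctla2a were called in each of the 12 fits that left out 1 library. Bcl2l11 lost its call without eGFP supernatant replicate 1 and Dmpk without Ifnb1eGFP supernatant replicate 3 (edgeR adjusted p = 0.0511 and 0.0525). Crem and St3gal6 lost it in 5 of 12 fits, Cd74 in 6, Edem1 in 7, Cxcl16, Hgf, Id3 and Itga9 in 8, Ctsh, Clec4d, Ephx1, Fabp5, Mmp19 and Ppm1j in 9, Hilpda, Niban1, Npas4, Pcna and Ptk2b in 10, and Irf4 and Osbpl3 in 11, with adjusted p up to 0.13 (Fabp5). Without Ifnb1eGFP supernatant replicate 3, and likewise without rIFNβ replicate 1, 21 named genes lost their call.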

How the data were processed

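RNA of 12 macrophage cultures was prepared with the TruSeq Stranded Total RNA kit. The authors quantified genes with RSEM 1.3.3 and deposited unnormalized expected counts per gene, of which 32% of values above 0 are not whole. The labels' processing notes join 2 build names (GRCm39 and mm10), and the annotation is not given in the sources used here; gene positions were therefore looked up by identifier in GENCODE on GRCm39. Counts were rounded, and genes were kept by filterByExpr (15033 of 56748).

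Differences were tested with the quasi-likelihood F test of edgeR 4.0.16 (R 4.3.3) after TMM scaling, with supernatant and IFNβ state as additive factors (residual df 9) and Benjamini-Hochberg adjustment over all genes tested. Calls needed an adjusted p no larger than 0.05. A 4-condition model gave the differences within each state and the interaction. CPM values use TMM-scaled library totals, and log2 values a prior count of 2. P-values measure the spread between cultures. The study's methods used DESeq2, here an alternative (1.42.0). Other alternatives were RLE factors, library totals, no filter, thinned counts, a replicate block, the average of the within-state differences, only the compared conditions, and leaving out each library. Removal of GC content and length and leaving out 2 libraries together were added after seeing the data. The steps were tested on simulated data, where 61 of 100 genes changed by a log2 of 0.5 were called and 82 of 100 changed by 1. A gene that was not called can therefore still have changed.

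Named were the 12 genes of smallest p in each direction whose groups did not overlap in either state, predicted genes left out, any gene past the study's thresholds, the 3 called members of smallest p of each of 37 gene lists, and the 3 genes of smallest interaction p; 1 gene that the rule names is not reported here. The comparison, lists and named-gene rule were chosen with earlier results of these data known. No columns were left unused (0). Replicates of a condition differed beyond sampling noise (chi-square per degree of freedom 5.339 to 54.02), so none was counted as a duplicate. Promoter windows were the 250 bases before the canonical GENCODE start.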

Additional observations from a re-analysis of the deposited data

Results flagged for a closer look

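Of 106 groups of 6 libraries examined for a single library far from the rest, 4 had one, by the gap to its nearest neighbor as a share of the group's range (above 0.625). Chance alone gives about 1 in 20 such groups, and the fitted IFNβ effect was removed from the log2 values first, since the 6 libraries with, or without, supernatant span both IFNβ states. Summed over 39 interferon-stimulated genes, eGFP supernatant replicate 2 stood highest of the 6 libraries with supernatant after that removal, with a level of 2842 CPM (gap share 0.712). The cause was not tested. Qpct was lowest in untreated control replicate 1 at 91.0 CPM (0.781). Trf was lowest in rIFNβ replicate 3 at 346.9 CPM (0.743), and Niban1 highest in Ifnb1eGFP supernatant replicate 1 at 66.0 CPM (0.636). Leaving out the library concerned kept the calls of Qpct, Trf and Niban1.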

How the results depend on the processing

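All 127 genes had the pooled direction in both IFNβ states, whose libraries the call itself used. Of the named genes none turned direction under any alternative run. The pooled count of 127 became 350 with DESeq2 (126 shared) and 4 where a log2 change of 1 or more in size was also required, and stayed within 1.5 times with RLE factors (118), library totals (115), no filter (140), thinned counts (118), the average of the within-state differences (136) and GC content and length removed (181, added after seeing the data). The share of higher calls was 77.2%, became 87.9% without the filter and ran from 69.2% (without Ifnb1eGFP supernatant replicate 2) to 91.4% (without untreated control replicate 1) when 1 library was left out. Without IFNβ the count of 45 became 204 with DESeq2, 75 without the filter, 22 from the 6 compared libraries alone and 78 with GC content and length removed. With IFNβ the count of 24 became 117, 41 and 2 under the first 3 of these. The interaction count of 0 became 12 with DESeq2, among them Adgre5 (adjusted p = 5.45e-08) and Il6ra (0.0385), and 1 without the filter. Causes were not tested.

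Leaving out each library in turn gave 54 to 159 pooled calls, 0 to 1 past the study's thresholds, 16 to 32 without IFNβ, 4 to 1051 with IFNβ and 0 to 0 for the interaction. With 1 library left out, the lone condition of 2 is assumed to vary like the others. Dropping both replicate 2 supernatant libraries left 148 pooled calls, 82 of them shared, and the share of higher calls was then 64.9%.

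Replicate numbers recur across conditions. Of 18 same-number pairs, 13 had correlated deviations over 0.1 (r 0.0582 to 0.2518), so the numbers were not taken as pairs, although 12 of 12 libraries correlated best with their own number. With a replicate block, the pooled calls were 222 (127 shared), those past the study's thresholds 1, those without IFNβ 122, those with IFNβ 48 and the interaction 0. Genes at a few CPM are limited by depth.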

Other observations

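Some genes outside the rule were named after their values were seen. Gpr34, a lysophosphatidylserine receptor, rose by 0.60, S1pr1, a sphingosine 1-phosphate receptor, by 0.44, and Cd83, a maturation marker, by 0.46 (edgeR adjusted p = 0.00207, 0.00239 and 0.00318). Since Gpr34 overlaps Cask on the opposite strand, the strand doubt given for Ctsl holds for it too. Lyz2, the macrophage lysozyme, rose by 0.32 (edgeR adjusted p = 0.0026). Of 29 tested receptors with a numbered Gpr symbol, Gpr34, Gpr35 and Gpr65 rose and the median was 0.01. Gpr35 overlaps Capn10 on the same strand. The neighboring decoy receptor genes Tnfrsf23 and Tnfrsf26 on chromosome 7 rose by 0.21 and 0.25, 2 of 15 tested TNF receptor superfamily genes (median 0.04). Among 10 sialyltransferases, St6gal1, which forms α2,6 linkages, rose by 0.33 (edgeR adjusted p = 0.00684), while St3gal6, which forms α2,3 linkages, fell by 0.45. Over all genes 0.845% were called, and these families were also chosen after values were seen.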
